A study of Mus musculus with 6 samples.

Results

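Pdxp and Pdxk encode the phosphatase and the kinase that remove and add the phosphate of vitamin B6. The 2 genes were taken from the 18193 genes that have a probe set with a single gene symbol, and their probe sets were found by symbol: 1 for Pdxp and 3 for Pdxk, of 34945 such probe sets. Both genes were selected on the log2 MAS5 signals of knockout against control arrays, with that difference already known, so the values of that difference are given as a description and without a test. The arrays measured RNA of isolated pancreatic islets, the endocrine clusters that are built mainly of insulin-secreting beta cells. There were 3 control and 3 Vhlh knockout (VhlhKO) samples, with 1 array each. In the knockout mice, Cre recombinase driven by the RIP2 promoter removes the floxed Vhlh(fl/fl) alleles in beta cells, while the other cells of the islet keep the gene. The sources used here do not state whether control mice carried Cre or floxed alleles. In each genotype the sample numbered 01 was from 26-week-old mice labelled male, 02 from 20-week-old mice labelled female and 03 from 18-week-old mice labelled male. The design text speaks of 3 islet batches per genotype. The errors and p-values below therefore measure the spread between these batches, which also differ in age and labelled sex.

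Vitamin B6 reaches cells as pyridoxine, pyridoxal or pyridoxamine. Pyridoxal kinase, the product of Pdxk, phosphorylates these forms, an oxidase converts the products to pyridoxal 5'-phosphate (PLP), and pyridoxal phosphatase, the product of Pdxp, takes the phosphate off again. PLP is the cofactor of aminotransferases, amino acid decarboxylases, glycogen phosphorylase and many other enzymes, among them the glutamate decarboxylases that make GABA in beta cells. Pdxp is also called chronophin, since the same phosphatase acts on cofilin, a protein that severs actin filaments. The Vhlh gene, Vhl on the arrays, encodes part of a ubiquitin ligase that has hypoxia-inducible factors (HIF) degraded when oxygen is present.

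The promoters of both genes are shown because HIF binds a short core motif, ACGTG or GCGTG, and beta cells of the knockout lack the protein through which HIF is degraded. The sequences are those of RefSeq on GRCm38.p6, both members were matched, and capitals mark each occurrence of either motif on either strand. The first lines give the 250 bases before the start of Pdxp, at chr15:78913669-78913918 on the plus strand, and a window of 25 bases after its start, at chr15:78913936-78913960. The remaining lines give the same for Pdxk on the minus strand, at chr10:78464949-78465198 and chr10:78464924-78464948.
Pdxp, before the start: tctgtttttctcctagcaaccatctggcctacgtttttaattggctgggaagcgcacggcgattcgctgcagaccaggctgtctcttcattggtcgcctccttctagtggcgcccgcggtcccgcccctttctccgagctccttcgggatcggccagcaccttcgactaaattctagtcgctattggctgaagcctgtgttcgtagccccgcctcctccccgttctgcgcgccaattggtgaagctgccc
Pdxp, after the start: cgcagcgcgcGCGTGcgagcggcca
Pdxk, before the start: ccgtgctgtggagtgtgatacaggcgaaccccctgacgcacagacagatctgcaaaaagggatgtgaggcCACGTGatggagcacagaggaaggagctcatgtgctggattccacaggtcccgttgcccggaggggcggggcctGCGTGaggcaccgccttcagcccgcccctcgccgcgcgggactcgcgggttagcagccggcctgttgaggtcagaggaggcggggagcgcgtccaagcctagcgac
Pdxk, after the start: tgcGCGTGcttaaagcgctcggagc

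In the window of 300 bases, from 250 before to 50 after the start, Pdxp held 1 match, a GCGTG at bases 28 to 32 after the start. Pdxk held 4 matches. A pair of them is the palindrome CACGTG, which reads as ACGTG on both strands and so counts as 2, and the others are GCGTG on the gene's strand, 1 before and 1 after the start. Both upstream stretches were rich in G and C, at 58.8% for Pdxp and 66.4% for Pdxk. Of the 32851 RefSeq promoter windows of this length, 43.8% held at least 1 match, and 3.9% held at least 4. A match is a run of letters and was not tested as a binding site.

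Pdxp, the phosphatase, had a higher signal on every knockout array than on any control array. The MAS5 signals of its probe set 1417890_at, on the linear scale on which the authors deposited them, were 68.3, 67.9 and 38.3 on controls 01, 02 and 03. The knockout signals were 845.2, 292.6 and 322.8. The groups did not overlap, and the lowest knockout signal, on knockout 02, was 4.28 times the highest control signal. The mean log2 signal was 5.81 ± 0.48 (SD, n = 3) for control and 8.75 ± 0.85 (SD, n = 3) for knockout arrays. This is a log2 difference of 2.94 ± 0.51 (standard error from limma), a 7.66-fold higher geometric mean, with a 95% interval of the log2 difference from 1.79 to 4.09. Of the 11609 genes tested, 10 had a larger difference towards the knockout. A gene with no overlap in this direction was not rare, since 3.98% of the genes tested had all knockout signals above all control signals, and Pdxp was taken up with its difference known.

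The control level of Pdxp lay in the dim part of the arrays. Every control signal was below its array's median, at 0.35 to 0.63 times that median and at percentiles 26.7 to 39.1 of the probe sets on the array. All knockout signals were above it, at 7.58, 2.38 and 3.17 times the median. Pdxp therefore passed the filter on dim signals, which asks for a signal above the array median on at least 3 of 6 arrays, through its knockout arrays alone. The size of the fold rests on the dim control values: with 50 signal units added before log2 the difference was 2.18. No detection calls were used here, so whether Pdxp RNA was present in control islets was not determined.

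Knockout 01 carried the highest Pdxp signal, 2.89 times that of knockout 02, while the control signals spanned 1.78 times. Compared within the same-numbered pairs, which share age and labelled sex, the knockout signal was 12.4-fold higher at number 01, 4.31-fold at number 02 and 8.42-fold at number 03. Since the groups do not overlap, the direction within pairs was fixed, and only the sizes differ between them. Leaving out 1 array at a time gave log2 differences of Pdxp from 2.45, without knockout 01, to 3.22, without knockout 02.

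**Figure D1:**
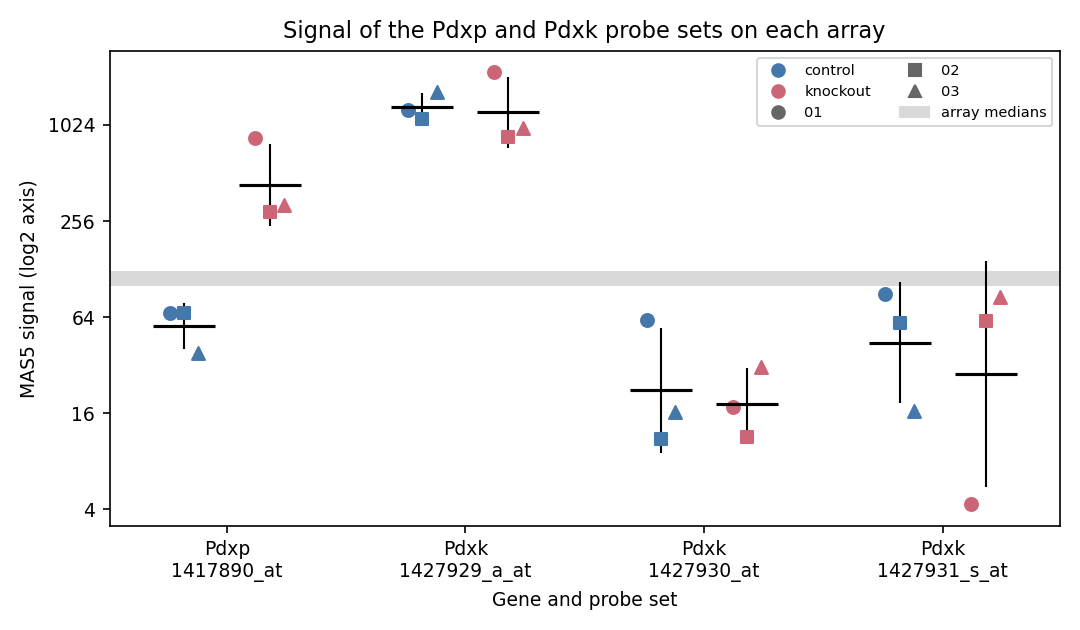
MAS5 signal (log2 axis) of the Pdxp probe set and the 3 Pdxk probe sets on the 3 control and 3 knockout arrays; symbols give the sample number, horizontal bars the geometric mean, vertical lines 1 SD of the log2 signals and the grey band the range of array medians, 101.9 to 122.7. Pdxp lies below the band in controls and above it in knockouts, Pdxk 1427929_a_at lies above it in both, and the remaining Pdxk probe sets lie below it on every array.

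Pdxk, the kinase, showed no such separation. Its bright probe set, 1427929_a_at, gave signals of 1272.8, 1110.4 and 1652.9 on controls 01 to 03. On knockouts 01 to 03 the signals were 2188.8, 857.8 and 982.0. The groups overlapped, since knockout 01 held the highest signal and knockouts 02 and 03 the lowest of all 6 arrays. The mean log2 signal was 10.37 ± 0.29 (SD, n = 3) for control and 10.26 ± 0.73 (SD, n = 3) for knockout arrays, and the log2 difference was -0.11 ± 0.39 (standard error from limma). The 95% interval, from -0.99 to 0.77, spans changes of close to the size of a doubling in either direction and does not show that the kinase was at the same level in both genotypes. Within pairs the knockout signal was 1.72, 0.773 and 0.594 times that of the control at numbers 01, 02 and 03, so the direction differed between pairs. Leaving out single arrays moved the log2 difference from -0.53, without knockout 01, to 0.14, without knockout 02.

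The other probe sets of Pdxk were dim and were not fitted. Signals of 1427930_at ran from 11.1 to 61.5 in controls and from 11.3 to 31.3 in knockouts. Those of 1427931_s_at ran from 16.6 to 88.8 in controls and from 4.3 to 85.0 in knockouts. Both lay below the array median on all 6 arrays, and their groups overlapped. The suffix _s_at marks probes that can bind transcripts of more than 1 gene, and RefSeq also lists a transcribed pseudogene, Pdxk-ps. Binding of pseudogene RNA to the Pdxk probe sets was not tested. Thus 1 of 3 Pdxk probe sets and the only Pdxp probe set entered the fit, and no second probe set was at hand to check Pdxp.

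Within the knockout group, Pdxp and the bright Pdxk probe set had the same order, highest on knockout 01 and lowest on knockout 02. Among controls the order differed, as control 03 was lowest for Pdxp and highest for Pdxk. With 3 arrays a group these orders are a description.

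**Figure D2:**
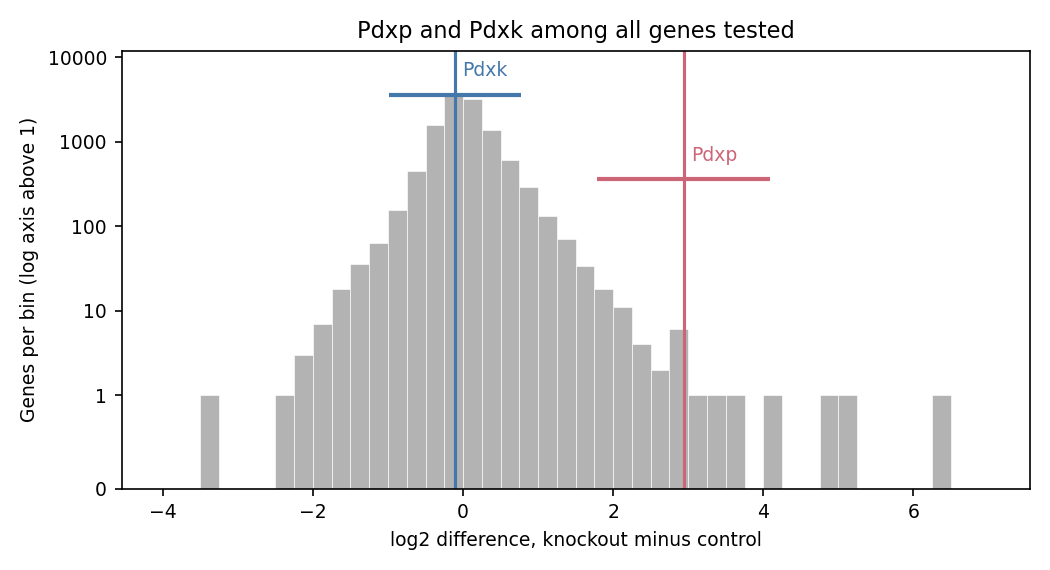
Number of genes (log axis above 1) by log2 difference, knockout minus control, in bins of 0.25 for the 11609 genes tested; vertical lines mark Pdxp and the bright Pdxk probe set and horizontal lines their 95% intervals. Pdxp, at 2.94, lies in the upper tail with 10 genes beyond it, and Pdxk, at -0.11, lies near the middle.

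The arrays as a whole bear on these values in several ways. Vhl, the targeted gene, had signals of 456.6, 638.7 and 838.8 in controls and 343.6, 358.3 and 467.4 in knockouts on its brighter probe set. Its log2 difference was -0.70 (SE 0.32, limma adjusted p 0.9998) and did not pass, and the groups overlapped by 1 array. Where its probes lie relative to the deleted part was not analysed here, so this is a weak check of the labels. Of 10 listed beta cell markers 8 were measured, with summed signals of 110377 to 156039 in controls and 88939 to 161644 in knockouts. Of the 10 endothelial markers measured 9 were higher in the knockout and 0 were at 0. One of the 10, Tie1, was below the array median on every array. The summed endothelial signal was 9005 to 9708 in controls and 11596 to 15293 in knockouts. This sum was highest on knockout 01 and, among controls, on control 03. Matrix markers were higher for 10 of 10 genes (sums of 4345 to 7614 in controls and 6019 to 21931 in knockouts). Neural markers were higher for 8 of 8 (1169 to 2225 and 1950 to 4443). Of both lists 0 were at 0, and the sums were highest on knockout 03. Acinar markers were lower for 7 of 8 genes, and their sums ran from 54553 to 257269 in controls and from 4843, on knockout 03, to 319029 in knockouts. Alpha, delta and PP cell markers were higher for 7 of 7 genes, leukocyte markers for 8 of 10 and duct markers for 3 of 5, with sums that overlapped between groups. The part of these cell types in the Pdxp and Pdxk values was not tested, and in whole islets more RNA per cell cannot be told apart from more cells of a type.

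Genes around the vitamin B6 phosphates were then compared from lists drawn up by function. Of 59 listed genes of vitamin B6 supply and PLP-dependent enzymes, 55 were matched to a probe set, 4 were not analysed here, and 41 were bright enough to test. None passed limma's test after Benjamini-Hochberg adjustment, where 0.0172% of all 11609 genes did (2 genes, both higher). At an unadjusted p under 0.05 there were 2 higher and 2 lower, against 1.99% and 0.594% of all genes. The median log2 difference of the 41 was 0.03, beside -0.00028 over all genes tested, with 22 above and 19 below 0. All knockout signals lay above all control signals for 3 of them and below for 1, beside 3.98% and 2.77% of all genes.

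Of the supply genes, 6 were tested, and they had a median log2 difference of 0.02. Aox1, an aldehyde oxidase that turns pyridoxal into the excreted pyridoxic acid, had signals of 299.5, 316.1 and 548.6 in controls and 687.4, 641.0 and 806.5 in knockouts. All its knockout signals were above the control signals, with a log2 difference of 0.92 (SE 0.32), but it did not pass (limma adjusted p 0.9998). Plpbp, which binds PLP, differed by -0.25 (SE 0.35), and by 0.17 with the mean of its probe sets. Alpl, the alkaline phosphatase that dephosphorylates PLP outside cells, differed by 0.11 (SE 0.42), and that value fell to -0.03 without knockout 01. Phospho2, a phosphatase with activity on PLP, stood at -0.61 (SE 0.42), and the vitamin transporter Slc19a2 at 0.23 (SE 0.32). None of these passed.

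The PLP-dependent enzymes held 35 tested genes with a median log2 difference of 0.03 and 0 that passed (unadjusted p under 0.05 for 1 higher and 2 lower). Pygl, the liver form of glycogen phosphorylase, had signals of 249.8, 280.5 and 319.2 in controls and 439.6, 781.1 and 610.0 in knockouts. These groups did not overlap, and the log2 difference was 1.08 (SE 0.31, limma adjusted p 0.9998). Pygb, the brain form, differed by 0.20 (SE 0.35).

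Of 11 aminotransferases 7 were above and 4 below 0, with a median of 0.12. Tat, which acts on tyrosine, had a log2 difference of -0.87 (SE 0.37). Gpt2, the mitochondrial alanine aminotransferase, was at 0.68 (SE 0.33), Psat1, of serine synthesis, at 0.62 (SE 0.33), and Kyat3, which acts on kynurenine, at 0.50 (SE 0.33). Kyat3 had no overlap between groups, with signals of 202.0, 301.1 and 390.3 in controls and 392.6, 396.9 and 431.1 in knockouts. Its lowest knockout signal was only just above its highest control signal.

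Among 8 tested decarboxylases, lyases and related genes the median was -0.04. Gad1, a glutamate decarboxylase, had signals of 8283.9, 9835.0 and 7557.9 in controls and 4038.3, 8229.9 and 3481.8 in knockouts. Knockouts 01 and 03 were below all controls and knockout 02 was among them, and the log2 difference of -0.80 (SE 0.34) did not pass. With the mean of the Gad1 probe sets the difference was -1.38, which did not pass either. Hdc, which makes histamine, stood at 1.16 (SE 0.84), with a signal of 15.8 on control 01. Without single arrays the Hdc value ran from 0.16, without control 01, to 1.87, without control 03, and with the pseudocount it was 0.58. Sgpl1, the sphingosine phosphate lyase, was at -0.49 (SE 0.49), and Ddc, which makes dopamine and serotonin, at -0.20 (SE 0.22).

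Enzymes of glycine, serine, sulfur and tryptophan metabolism had a median of -0.09 over 11 genes. Cbs, which starts the conversion of homocysteine to cysteine, was the 1 PLP enzyme with all knockout signals below all control signals: 1421.0, 1181.7 and 1148.0 in controls and 1081.0, 841.1 and 902.8 in knockouts, a log2 difference of -0.41 (SE 0.26). The serine hydroxymethyltransferases Shmt2 and Shmt1 stood at -0.48 (SE 0.39) and 0.28 (SE 0.40), both with the other sign when their probe sets were averaged (0.19 and -0.11), and Sepsecs, of selenocysteine synthesis, at -0.32 (SE 0.28). In sphingolipid and heme synthesis, Sptlc2 was at 0.33 (SE 0.29), Alas1 at 0.06 (SE 0.34) and Sptlc1 at 0.00 (SE 0.46). None of these genes passed.

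**Figure D3:**
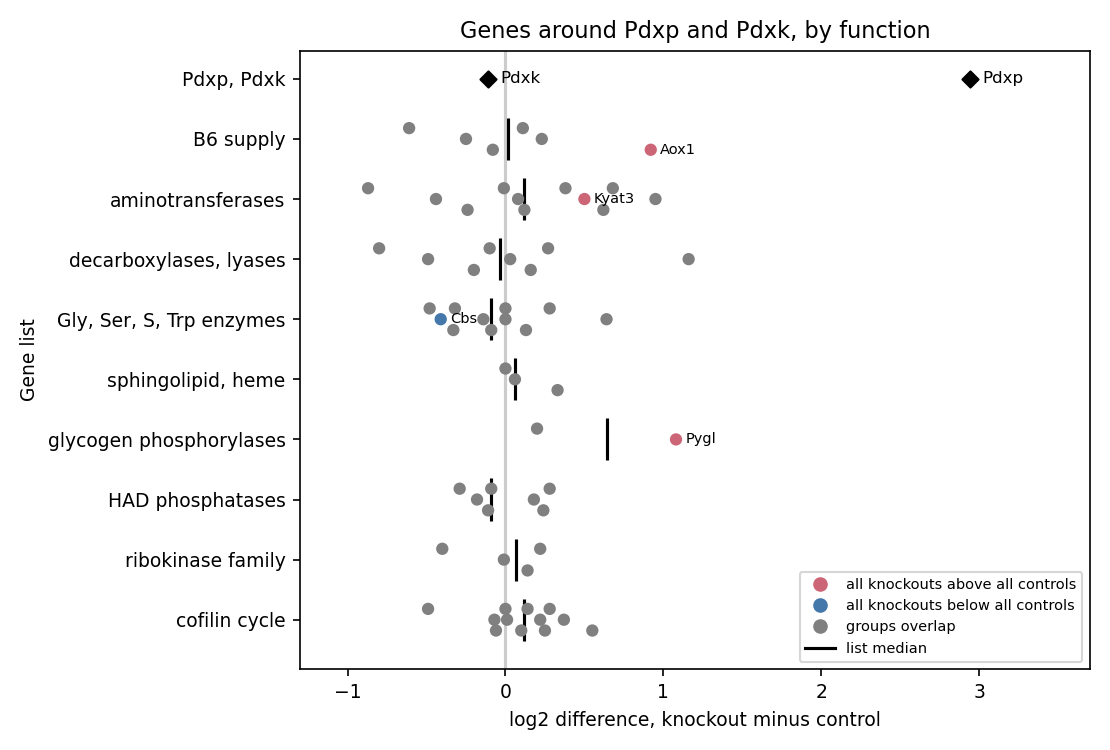
Log2 difference, knockout minus control, of each tested gene of the function lists, with Pdxp and Pdxk as diamonds at the top; black bars are list medians, and named points are genes whose groups did not overlap. The list genes lie between -0.87 and 1.16 (Hdc, at 0.16 without control 01). Pdxp, which unlike them was taken up for its difference, lies at 2.94.

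The second set of lists concerned the protein families of both enzymes and the cofilin cycle. Of 30 listed genes 27 were matched to a probe set and 23 were tested; 0 passed in limma, 0 had an unadjusted p under 0.05, and 0 had groups that did not overlap, beside 3.98% and 2.77% of all genes. The median log2 difference was 0.10. In the HAD family of phosphatases to which Pdxp belongs, Pgp, a close relative of Pdxp, had signals of 1285.9, 1590.4 and 969.1 in controls and 1946.2, 1437.6 and 1031.3 in knockouts. These overlapped, and the log2 difference was 0.18 (SE 0.33, 95% interval -0.56 to 0.92). Other members were Hdhd2 at -0.29 (SE 0.31), Hdhd5 at 0.28 (SE 0.43), Hdhd3 at 0.24 (SE 0.41) and Nanp, of sialic acid synthesis, at -0.18 (SE 0.28).

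Genes of the ribokinase family, to which Pdxk belongs, ranged from -0.40 to 0.22. They were the adenosine kinase Adk at -0.40 (SE 0.43), the ribokinase Rbks at 0.22 (SE 0.41), the ketohexokinase Khk at 0.14 (SE 0.42) and Naxd, which repairs hydrated NADH, at -0.01 (SE 0.38).

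In the cofilin cycle, 12 genes were tested, and 8 were above and 4 below 0. Limk1, a kinase that opposes the action of Pdxp by phosphorylating cofilin, had signals of 109.8, 127.5 and 198.0 in controls and 333.9, 154.8 and 167.4 in knockouts. Knockout 01 was above the other arrays, and the log2 difference was 0.55 (SE 0.45), but -0.28 with the mean of its probe sets. Limk2, the related kinase, was at 0.00 (SE 0.34). The slingshot phosphatases, which like Pdxp dephosphorylate cofilin, were at 0.28 (SE 0.44) for Ssh1 and -0.06 (SE 0.29) for Ssh2. The actin-severing protein Dstn stood at -0.49 (SE 0.44), and Cap1, which helps to recycle actin, at 0.37 (SE 0.52).

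Neighbours on the chromosome were read as well. In the RefSeq gene order, the protein-coding genes next to Pdxp are Sh3bp1 and Lgals1. Lgals1, which encodes galectin-1, had signals of 813.8, 1467.7 and 392.1 in controls and 1002.9, 2584.4 and 2525.6 in knockouts on its brighter probe set. The groups overlapped, the log2 difference was 1.27 (SE 0.53, limma adjusted p 0.9998), and the second Lgals1 probe set gave 1.20. Lgals1 was highest on knockouts 02 and 03, and Pdxp on knockout 01. Both genes were lowest on control 03, and a link between them was not tested. Sh3bp1, a GTPase-activating protein, was below the array median on all 6 arrays, with 15.3 to 19.4 in controls and 24.3 to 97.3 in knockouts. Cstb, the protease inhibitor cystatin B, is next to Pdxk and differed by 0.05 (SE 0.32).

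The tested genes whose log2 signals over the 6 arrays were most like those of Pdxp were 2500002B13Rik, Egln1, 1700001C19Rik, Krtap17-1 and Lrp1, with Pearson's r from 0.984 to 0.994. A gene that is high on the same 3 arrays reaches a high r with Pdxp, so these values restate in part the contrast on which Pdxp was taken up, and they share the 6 arrays. Egln1, a prolyl hydroxylase of HIF, had signals of 2660.4, 2484.7 and 1941.8 in controls and 5946.6, 3785.6 and 4097.5 in knockouts. Its arrays had the same order as those of Pdxp, with knockout 01 highest and control 03 lowest. The same held for 2500002B13Rik and Lrp1, and a choice by high r favours such an order. Egln1 had a smaller log2 difference than Pdxp, at 0.95 (SE 0.28, limma adjusted p 0.9998). The others differed by 1.44 for 2500002B13Rik, 0.31 for 1700001C19Rik, 0.80 for the keratin-associated Krtap17-1 and 0.60 for the lipoprotein receptor Lrp1. Without knockout 01, 1 of these 5 remained among the most similar genes.

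For the bright Pdxk probe set the 5 most similar were Fxr2, an RNA-binding protein, Glrx5, of iron-sulfur cluster assembly, the actin regulator Enah, the corepressor Rere and Sec61a1, a subunit of the channel into the endoplasmic reticulum, with r from 0.985 to 0.988. Their log2 differences lay between -0.18 and -0.04. This list was less steady. Of the 5, 0 remained without control 03 or without knockout 01, 02 or 03. Only 1 remained without control 02 or with quantile normalization, and 3 without control 01.

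**Figure D4:**
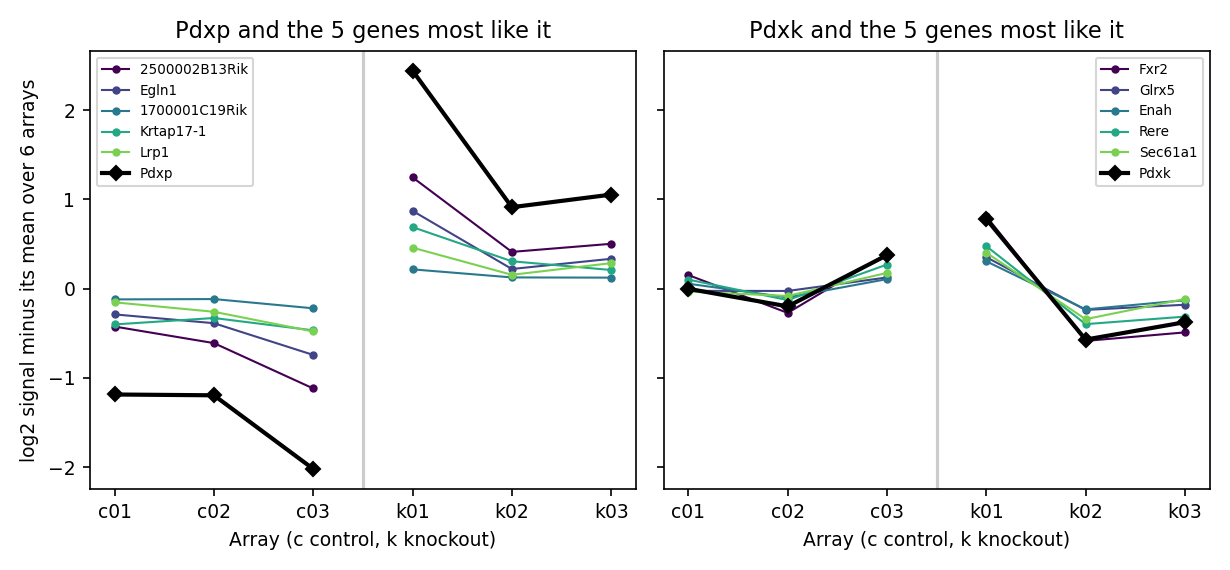
Log2 signal minus its mean over the 6 arrays, for Pdxp (left) and Pdxk (right, bright probe set) in black and the 5 genes most like each in colour, on controls (c01 to c03) and knockouts (k01 to k03); lines join points of a group only to guide the eye. Pdxp and its 5 genes peak on knockout 01 and stay below their means on all controls, whereas Pdxk and its genes peak on knockout 01 and are lowest on knockout 02.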

How the data were processed

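The authors deposited linear signal intensities per probe set, and the submitters' processing notes name GCOS 1.4 and MAS5. The 2% trimmed mean was 500.003 on every array, and no other normalization between arrays was recorded. Genes were named from the platform annotation, with symbols checked against RefSeq of GRCm38.p6. For each gene the probe set with the highest mean log2 signal was used, those ending in _x_at last. A gene was tested if above the array median on at least 3 of 6 arrays (11609 genes). Log2 signals, with no value added, were fitted with limma 3.58.1 in R 4.3.3 (intensity trend; Benjamini-Hochberg; threshold 0.05). Standard errors of the members, Vhl and the neighbours come from a separate fit of the same kind over 23093 bright probe sets. Adjusted p-values and the rank of Pdxp come from the fit over genes. Simulated data with 100 genes each changed by 2 and 4 log2 units gave 79 and 97 calls, and 11 of the unchanged genes were called too. The simulated noise was independent between genes and arrays and held no pairs. These counts therefore check the fitting steps and do not give the power in the real arrays. Numbers of arrays limit the precision.

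Members and lists were chosen with earlier results of these data known. Named were the members, the targeted gene, fixed enzymes, up to 4 genes of lowest p per list, the 5 genes most like each member by Pearson's r, and neighbours. Same-numbered samples deviated together (correlations 0.15, 0.42 and 0.43 over the genes tested), although control 01 with knockout 02 reached 0.14. The numbers were taken to pair the samples only in the comparisons within pairs and in the replicate block setting. The main fits, which gave the limma standard errors, intervals and p-values above, held genotype alone and did not use the pairs. Their errors thus also hold differences of age and labelled sex. A gene that did not pass was not shown to be unchanged. With the replicate block 6 genes passed the threshold, against 2 in the main fit.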

Additional observations from a re-analysis of the deposited data

How the results depend on the processing

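The log2 difference of Pdxp was between 2.45 and 3.22 when 1 array was left out, 2.94 with the replicate block, 2.91 with quantile normalization, 2.64 with array weights and 2.18 with a pseudocount of 50. Under the stricter filter, a mean log2 signal above that of 200 units, Pdxp was too dim to be fitted. The bright Pdxk probe set lay between -0.53 and 0.14 without 1 array and at -0.35 when all Pdxk probe sets were averaged. Genes passing the threshold numbered 6 with the replicate block, 4 with the pseudocount and 0 to 5 without 1 array (0 without knockout 01 or knockout 03, 1 without control 01, 5 without control 02). The count of passing genes in both sets of function lists was 0 in every setting run, paired ones included. The median of the family and cofilin lists, 0.10, was -0.04 with array weights and -0.06 without control 03. Signals below the array median, as in the Pdxp controls, limit how well its fold is known.

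Of 50 named genes besides the members, 25 changed direction in at least 1 setting; none of the 50 had passed, and 0 crossed the threshold in any setting. The cause was not tested. With the mean of probe sets the log2 differences were 0.17 for Plpbp, 0.19 for Shmt2, -0.11 for Shmt1, 0.20 for Sptlc1, 0.27 for Hdhd2, -0.90 for Hdhd5, 0.15 for Adk, -0.28 for Limk1, 0.56 for Enah and 0.11 for Rere. With array weights they were -0.15 for Alas1, -0.04 for Hdhd5, -0.17 for Khk, 0.24 for Naxd and -0.09 for Cap1, and with quantile normalization Sptlc1 stood at 0. Without 1 array the ranges were -0.05 to 0.42 for Slc19a2, -0.25 to 0.29 for Alas1, -0.52 to 0.33 for Sptlc1, -0.08 to 0.39 for Pygb, -0.17 to 0.59 for Hdhd5, -0.25 to 0.52 for Khk, -0.26 to 0.36 for Naxd and -0.06 to 0.96 for Cap1. They were -0.09 to 0.68 for Ssh1, -0.03 to 0.25 for Alpl, -0.04 to 0.41 for Pgp, -0.19 to 0.19 for Limk2, -0.24 to 0.03 for Ssh2 and -0.08 to 0.31 for Cstb. For the genes most like Pdxk they were -0.63 to 0.07 for Fxr2, -0.23 to 0.06 for Glrx5, -0.20 to 0.07 for Enah, -0.44 to 0 for Rere and -0.25 to 0.12 for Sec61a1.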
